A study of Mus musculus with 12 samples.

Results

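Histone marks in Setdb1 knockout (KO) and wild-type (WT) mouse neural progenitors were described at 10 imprinted genes with germline control regions, Gnas, Kcnq1ot1, Airn, Igf2r, Grb10, Peg3, Peg10, Mest, Plagl1 and Impact. For H3K9me3, a mark of silenced chromatin, the members were the regions of the authors' deposited table whose gene symbol equals one of these names, which gave 20 of 50654 listed regions at 7 of the 10 genes. For H3K27ac, a mark of active promoters and enhancers, they were the peaks in or within 1 kb of each gene in 6 peak lists. SETDB1 is the histone methyltransferase that places H3K9me3 at many silenced loci. All cells were neurosphere cultures grown from the ganglionic eminence of C57BL/6 embryos at E15.5, and each native ChIP-seq library was made from 100000 nuclei. The KO is labelled Nestin-KO. Nestin is an intermediate filament gene of neural progenitors, and neither the driver of the deletion nor the deleted part of Setdb1 is stated in the labels. There were 3 KO and 3 WT animals for each of the 2 marks, 12 libraries in all, and the library titles carry different animal numbers for each mark. For H3K9me3 the KO group was 3 males and the WT group 1 male and 2 females, so genotype and sex are partly mixed and cannot be told apart. For H3K27ac each genotype had 1 female and 2 males. The first number in the library titles, whose meaning is not stated, was 304 for 1 and 508 for 2 H3K9me3 KO libraries and 304 for 1 and 464 for 2 WT libraries, so it too is mixed with genotype. For H3K27ac it was 508 for 1 and 2982 for 2 libraries of each genotype. All coordinates are in mm10.

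An imprinted gene is expressed from the copy inherited from a single parent. The choice is set by a control region that carries DNA methylation from the egg or the sperm, and at the germline control regions of these genes it is the maternal copy that carries it. In the early embryo such methylated copies are bound by the zinc finger protein ZFP57, which recruits TRIM28 and through it SETDB1, so that the methylated copy is also packed with H3K9me3 while the other copy is accessible. Several of these control regions are themselves promoters, among them those of the antisense RNAs Airn and Kcnq1ot1 and of Peg3, Peg10, Mest and Plagl1. Neither mark was measured separately on the parental copies, so a value here is the sum over both. In bulk chromatin, loss of the mark from some cells and a weaker mark in every cell cannot be told apart.

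Promoter windows of Gnas, Peg3 and Kcnq1ot1 are shown because the marks described below lie on or close to them, and a Mest window because it holds a ZFP57 motif. Each runs from 250 bases before to 50 bases after an annotated start and is printed on the strand of its gene, from RefSeq on GRCm38.p6. In the windows of Gnas, Peg3 and Kcnq1ot1 the capitals mark CG dinucleotides, the sites of DNA methylation. In the Mest window they mark the letters TGCCGC on either strand, the core that ZFP57 binds when methylated.
Gnas, chr2:174284070-174284369, plus strand: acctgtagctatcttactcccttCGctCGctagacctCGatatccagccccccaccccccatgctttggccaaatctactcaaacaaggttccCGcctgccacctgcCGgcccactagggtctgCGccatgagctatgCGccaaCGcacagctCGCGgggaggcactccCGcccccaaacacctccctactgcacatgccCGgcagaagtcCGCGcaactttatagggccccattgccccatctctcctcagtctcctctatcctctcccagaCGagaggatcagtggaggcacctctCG
Peg3, chr7:6730370-6730669, minus strand: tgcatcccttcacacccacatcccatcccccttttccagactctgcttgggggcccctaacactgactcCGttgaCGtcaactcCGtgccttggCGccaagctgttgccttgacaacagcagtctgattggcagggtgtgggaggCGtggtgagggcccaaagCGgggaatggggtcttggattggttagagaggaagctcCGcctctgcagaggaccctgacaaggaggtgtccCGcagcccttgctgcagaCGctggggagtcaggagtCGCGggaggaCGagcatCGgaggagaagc
Kcnq1ot1, chr7:143296498-143296797, minus strand: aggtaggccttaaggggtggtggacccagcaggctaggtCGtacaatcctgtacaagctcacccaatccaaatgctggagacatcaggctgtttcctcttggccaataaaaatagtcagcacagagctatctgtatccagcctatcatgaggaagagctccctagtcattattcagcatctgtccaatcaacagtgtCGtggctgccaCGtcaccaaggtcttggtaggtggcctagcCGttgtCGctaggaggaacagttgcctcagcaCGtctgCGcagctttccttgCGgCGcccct
Mest, chr6:30737800-30738099, plus strand: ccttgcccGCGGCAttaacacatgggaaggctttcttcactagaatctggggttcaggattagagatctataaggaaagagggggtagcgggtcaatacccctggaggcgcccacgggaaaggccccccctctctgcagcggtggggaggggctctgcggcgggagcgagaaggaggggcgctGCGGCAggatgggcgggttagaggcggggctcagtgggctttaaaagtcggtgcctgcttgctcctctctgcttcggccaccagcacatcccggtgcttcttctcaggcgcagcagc

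The table of promoters held 14 windows for 8 of the 10 genes. Their CG count ran from 3 at Airn to 45 at the upstream start of Grb10, with a median of 17, against a median of 7 over all 32851 windows. The Gnas window shown held 16, the Peg3 window 13 and the Kcnq1ot1 window 9. TGCCGC or its reverse complement occurred in 4 of the 14 windows (3 genes, Mest, Plagl1 and Grb10), beside 11.6% of all windows. The other windows of 300 bases do not hold these letters, which says nothing of the rest of the locus. The Mest windows among the 4, which begin at 30737800 and 30737803, nearly coincide. The letters contain a CG, and the windows of these genes had a higher median CG count. The share of 4 in 14 is thus not read as an excess. Only the Peg3 window overlapped a listed H3K9me3 region.

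Setdb1 (chromosome 3, 95323525 to 95357202) overlapped 0 listed H3K9me3 regions, and H3K27ac peaks covered 947, 860 and 310 bp of it in KO and 877, 799 and 0 bp in WT. Neither value checks the deletion. The H3K9me3 table joins the 3 values of a genotype in 1 cell without naming the animals, so values are given in their order in that cell. Each value is a whole number of reads times a constant of its library, and 1 read was worth 2.55, 0.436 and 0.840 normalised reads in KO and 1.77, 0.820 and 0.725 in WT. If this constant follows depth, which is not stated, the first KO position is the shallowest. The H3K27ac lists held 26344, 42651 and 11446 peaks in KO and 31912, 37289 and 12446 in WT. As a check of the labelled cell type, 5 of 6 neural progenitor markers had an H3K27ac peak in at least 4 of the 6 libraries, among them Nes, Fabp7 and Pax6 in all 6. Of 8 ganglionic eminence markers none did, and 6, including Dlx2, Dlx5, Nkx2-1 and Gad2, had no peak in any library. All 5 cortical excitatory markers had none, and of 4 glial markers Mbp and Aqp4 had peaks in 5 libraries each (3 KO, 2 WT), Gfap in 2 KO and 0 WT, and Sox10 in 0 KO and 1 WT. The endothelial marker Pecam1 had a peak in all 6 libraries and the other 2 in none, and of 4 microglia and blood markers Ptprc had one in 1 KO and 1 WT library and the other 3 in none. The part of other cell types in the results was not tested. The defining markers of the labelled region were thus absent from the peak lists or present in at most 3 of them.

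H3K9me3 was lower in KO at every listed region of these genes. All 20 had a negative log2 fold change of KO over WT in the authors' deposited table, from -2.83 at Gnas to -0.78 at Grb10 with a median of -1.54, where 71.1% of all listed regions were lower and 28.9% higher, with a median of -0.94. Summed over the 20 regions, the values were 339, 476 and 793 normalised reads in KO and 1718, 1779 and 1779 in WT. At 19 of the 20 regions the highest KO value stayed below the lowest WT value, as it did at 54.2% of all listed regions. The exception lay in Grb10. How regions came to be listed is not stated, and none of the 20 had a log2 fold change between -0.78 and 0. A region with unchanged H3K9me3 may thus not have been listed. The shares of all listed regions given here and below are shares of that list, not of the genome.

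The spread between libraries was then taken into account. The test was limma on log2(value + 1), fitted over all listed regions with Benjamini-Hochberg adjustment and a threshold of 0.05. It called 10 of the 20 regions lower and 0 higher, against 14.9% of all listed regions called lower and 1.24% called higher. At an unadjusted p of 0.05, 18 of the 20 were lower, against 48.5% of all listed regions. Regions of a gene come from the same libraries, and some adjoin, as at Gnas, Airn and Grb10. Counts out of 20, here and below, are thus not counts of independent loci. The called regions were all 3 at Kcnq1ot1, 3 of 5 at Airn, 2 of 3 at Gnas and the single regions at Peg3 and Impact. None of the 6 at Grb10 passed, nor did the region at Peg10. These adjusted p-values all lie just under the threshold, and the call depends on single libraries. Leaving out the first or second KO value or any WT value ended every lower call, at these genes and over all listed regions. At an unadjusted p of 0.05 these fits had 11 to 17 of the 20 lower, beside 24.4% to 41.0% of all listed regions. Leaving out the third KO value gave 20 of 20, beside 61.1% of all listed regions. With limma-voom on the recovered reads, an alternative chosen after the data were seen, 19 of 20 passed, beside 58.0% of all regions called lower.

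**Figure D1:**
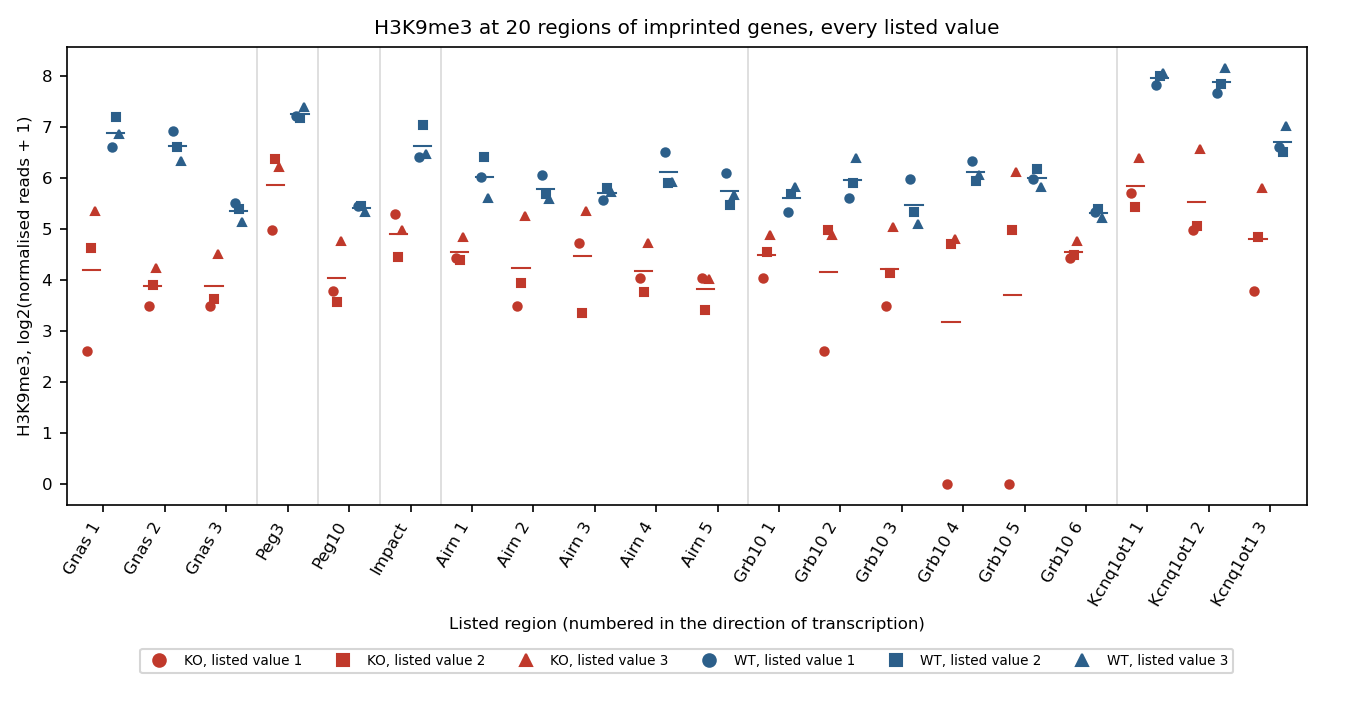
Each listed H3K9me3 value at the 20 regions, as log2(normalised reads + 1), with KO in red left of WT in blue, 1 symbol per listed position and bars at the group means of the log2 values. Regions of a gene are numbered in the direction of transcription. KO and WT overlap only at the fifth Grb10 region, and 2 Grb10 regions have a first KO value of 0.

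The third listed KO value was the highest of the KO values at 16 of the 20 regions, and so it was at 73.8% of all listed regions. The median over the 20 regions was 14.0, 21.1 and 29.4 normalised reads in KO, against 66.5, 59.1 and 57.3 in WT. In recovered reads the sums were 133, 1091 and 944 in KO and 969, 2169 and 2454 in WT, so the first KO value rests on a median of 5.5 reads per region. Which animals these positions stand for is not given, and the part that sex or library plays in the difference was not tested.

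Gnas encodes the stimulatory G protein alpha subunit from its downstream start. From upstream starts it gives NESP55, made from the maternal copy, and XLas, made from the paternal copy. It had the largest fold changes of the 10 genes in the authors' deposited table (-2.83 and -2.38 on the log2 scale). The region at 174297901 to 174300100 on chromosome 2 begins 42 bp after the start that the table annotates at 174297859. It held 10.2, 14.0 and 17.7 normalised reads in KO and 120.5, 96.0 and 79.8 in WT. All KO values were below all WT values by a wide margin, and the means were 13.9 ± 3.73 and 98.8 ± 20.5 (SD, n = 3 each). The limma log2 fold change was -2.75 ± 0.36 (SE; adjusted p = 0.0471). Behind it stand 4, 32 and 21 reads in KO and 68, 117 and 110 reads in WT. The adjoining region (174300201 to 174301200) held 10.2, 11.3 and 21.9 normalised reads in KO and 44.3, 41.0 and 34.1 in WT. Its groups did not overlap either, but it did not pass (limma adjusted p = 0.0627).

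The region at the most upstream Gnas start (174284501 to 174286900) begins 181 bp after that start, downstream of the promoter window printed above. It held 5.09, 23.5 and 39.5 normalised reads in KO and 95.7, 145 and 115 in WT. The KO values spread widely, on 2, 54 and 47 reads, and still did not reach the lowest WT value. The limma log2 fold change was -2.69 ± 0.63 (SE; adjusted p = 0.0471). No H3K9me3 region was listed at the downstream starts of Gnas. The labels do not give the position of the Gnas germline control region, so no Gnas region or window was assigned to it.

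Kcnq1ot1 is a long antisense RNA made from the paternal copy inside Kcnq1, and it silences neighbouring genes on that copy. Its 3 regions also lie inside Kcnq1 (143106877 to 143427050 on chromosome 7), and a chromatin mark has no strand, so they cannot be given to one of the genes. They had the highest WT levels per kilobase of the 20 regions, and all passed. The region at 143249001 to 143253900 held 51.0, 41.9 and 82.4 normalised reads in KO and 225, 255 and 263 in WT. Its limma log2 fold change was -2.12 ± 0.30 (SE; adjusted p = 0.0471). The region at 143225901 to 143230200 held 30.6, 32.3 and 93.3 in KO and 200.3, 226 and 284 in WT, and that at 143219201 to 143221200 held 12.7, 27.5 and 54.6 in KO and 95.7, 90.2 and 128 in WT. In all 3 regions the third KO value was the highest of its group and the groups stood apart.

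None of the Kcnq1ot1 regions was near the control region, which lies at the start of the RNA. The nearest lay 42647 bp downstream of the annotated start at 143296547, and the farthest ended 77346 bp downstream. In the order given above, their mean levels per kilobase were 11.9, 12.1 and 15.8 normalised reads in KO and 50.6, 55.1 and 52.4 in WT.

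Airn is the antisense RNA that silences Igf2r on the paternal copy, and its promoter is the control region in an intron of Igf2r. The region at 12742101 to 12743600 on chromosome 17 begins 790 bp after the Airn start and is the only listed region that overlaps Igf2r, the receptor that clears insulin-like growth factor II. It held 20.4, 20.1 and 27.7 normalised reads in KO and 63.8, 83.7 and 47.9 in WT. The KO values were close together and below every WT value, and the limma log2 fold change was -1.46 ± 0.35 (SE; adjusted p = 0.0471). The other 4 Airn regions lay 71290 to 83389 bp downstream of the start. Of these, 12821801 to 12823400 held 15.3, 12.6 and 25.2 in KO and 90.4, 58.2 and 59.5 in WT (limma log2 fold change -1.94 ± 0.40 SE, adjusted p = 0.0471). Its neighbour at 12823501 to 12824700 also passed, with means of 13.3 ± 3.24 normalised reads for KO and 53.4 ± 12.5 for WT (SD, n = 3 each). The regions at 12812601 and 12818701 did not (limma adjusted p = 0.0547 and 0.0775).

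Among the genes expressed from the paternal copy, Peg3 is a zinc finger transcription factor. Its region (6728101 to 6731200 on chromosome 7) runs from -781 to 2318 bp relative to the start at 6730419, and so overlaps the Peg3 window printed above. It held 30.6, 81.5 and 73.1 normalised reads in KO and 147, 143 and 166 in WT. The first KO value was the low one, and the groups did not overlap. The limma log2 fold change was -1.40 ± 0.38 (SE; adjusted p = 0.0482). In the authors' deposited table the strongest window of this region, 6728801 to 6729800, had a log2 fold change of -1.99 where the whole region had -1.30.

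Impact regulates the stress kinase GCN2. Its region (12972701 to 12974800 on chromosome 18) begins 449 bp after the start at 12972252. It held 38.2, 20.9 and 30.3 normalised reads in KO and 83.3, 130 and 87.0 in WT, with a limma log2 fold change of -1.72 ± 0.35 (SE; adjusted p = 0.0471). Here the first KO value was the highest of its group, unlike at most other regions. Peg10, a gene derived from a retrotransposon and needed in the placenta, had a region 295 to 1394 bp after its start (4747601 to 4748700 on chromosome 6). It held 12.7, 10.9 and 26.1 in KO and 42.5, 42.7 and 39.2 in WT. The WT values were nearly equal, the groups did not overlap, and the difference did not pass (limma adjusted p = 0.0623). Mest, a hydrolase-like protein, and Plagl1, a zinc finger regulator of growth, had no listed region.

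Grb10 is an adaptor protein that restrains growth factor signalling, made from the maternal copy in most tissues and from the paternal copy in neurons. It had 6 listed regions on chromosome 11. The first (12025201 to 12026400) begins 1571 bp after the start at 12027971. Its mean was 22.0 ± 6.65 normalised reads for KO and 48.0 ± 8.23 for WT (SD, n = 3 each), with every KO value below every WT value (limma log2 fold change -1.12 ± 0.39 SE, adjusted p = 0.0594). The KO enrichment there, 1.71 in the authors' deposited table, was the highest KO enrichment of the 20 regions, and the WT enrichment was 3.27.

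The regions at 11987801 to 11989500 and 11970501 to 11972100 had a first KO value of 0, which allows up to 7.64 normalised reads at that library's depth by counting error. At 11987801 the other KO values were 24.9 and 26.9, against 79.8, 59.9 and 65.3 in WT. At 11970501 they were 30.5 and 68.1, against 62.0, 71.4 and 55.1 in WT, and this is where the groups overlapped. Their limma adjusted p-values were 0.0701 and 0.130. The region with the smallest fold change, 11964401 to 11965400, held 20.4, 21.4 and 26.1 in KO and 39.0, 41.0 and 36.3 in WT (limma adjusted p = 0.0981). Of the remaining regions, 12007301 to 12008300 held 10.2, 16.6 and 31.9 in KO and 62.0, 39.4 and 33.4 in WT (limma adjusted p = 0.0755). That at 12008401 to 12009800 held 5.09, 30.5 and 28.6 in KO and 47.9, 58.2 and 82.7 in WT (limma adjusted p = 0.0603).

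Promoter regions of these genes were lower where the promoter class as a whole was mixed. Of the 20 regions, 8 fall in the table's promoter classes, within 1 or 3 kb of a start, and all 8 were lower, with a median log2 fold change of -1.49. Over all 1717 regions of these classes 51.7% were lower and the median was -0.57. The 12 in gene bodies were lower too, with a median of -1.65, beside 82.9% and -1.17 over all 11902 gene body regions. On chromosome 7, where 32.3% of listed regions were lower, all 4 regions at Peg3 and Kcnq1ot1 were lower. On the chromosomes of the other members most listed regions were lower. The share was 80.9% on chromosome 2, 63.7% on 6, 90.6% on 11, 59.2% on 17 and 96.3% on 18. Within 1 Mb of Peg3 the other listed regions were 30 lower and 63 higher, and within 1 Mb of Kcnq1ot1 they were 30 lower and 0 higher. They were also mostly lower around Gnas (45 lower, 6 higher), Airn (67 and 27), Grb10 (34 and 8), Peg10 (27 and 1) and Impact (28 and 1). Around Mest and Plagl1, which had no region, the counts were 22 and 18 lower and 0 higher at either.

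The size of the difference depends on the scaling. Median-ratio scaling, computed from all listed regions, moved log2 fold changes upward by a median of 0.81. It treats the typical listed region as unchanged, although most were listed as lower. Under it limma called 6 of the 20 regions lower and 0 higher, against 5.97% of all listed regions lower and 27.7% higher. These were the 3 at Kcnq1ot1 (log2 fold changes -1.53, -1.30 and -1.10), the 2 upstream ones at Gnas (-1.95 and -1.90) and 12821801 at Airn (-1.13). The Grb10 region at 11964401 turned to 0.046.

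**Figure D2:**
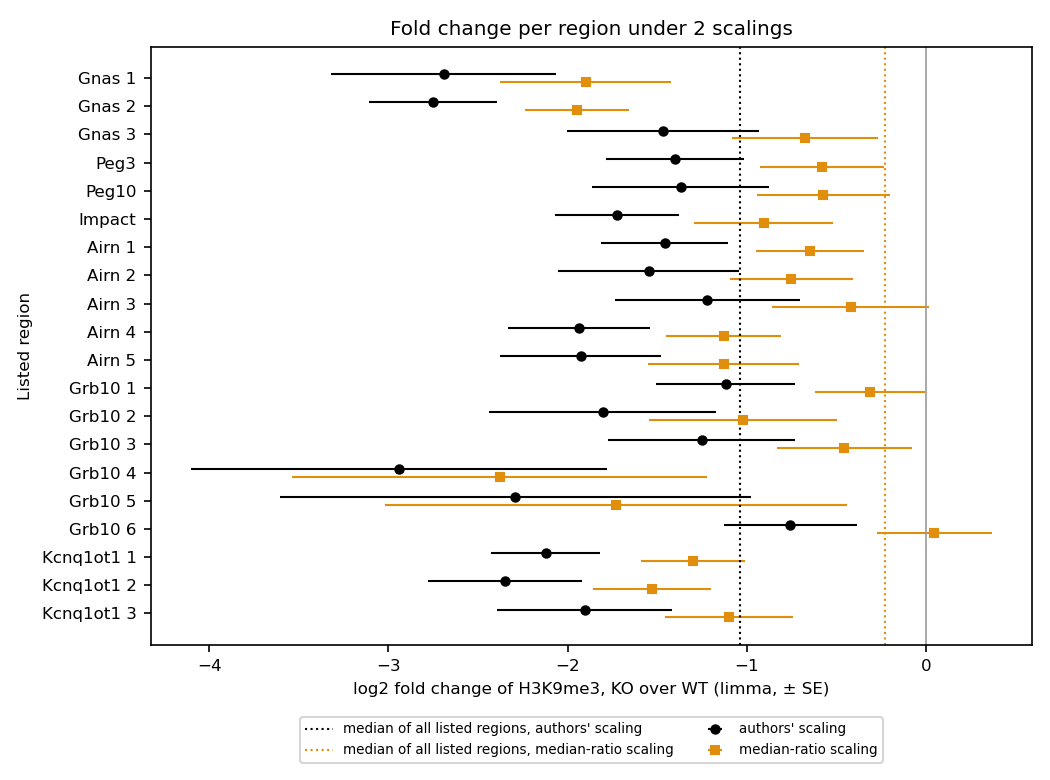
Limma log2 fold change of H3K9me3 (KO over WT, ± SE) for each of the 20 regions, under the authors' scaling (black circles) and median-ratio scaling (orange squares), with dotted lines at the medians of all listed regions. Of the 20 regions, 19 lie below the median of all regions under both scalings, and the sixth Grb10 region lies above it under both and crosses 0 under the second.

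Over the 6 listed values, the gene regions most like the Gnas region at 174297901 were in Vps13b, Gpr50 and Dlg1. Their Euclidean distances on the log2(value + 1) scale were 0.669, 0.671 and 0.861 among 13752 regions in the table's promoter and gene body classes. The Vps13b region held at most 20.2 normalised reads in KO and at least 71.8 in WT.

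Other imprinted genes were also listed as lower, and most of their regions did not pass limma. Of a list of 41 imprinted genes outside the 10, 18 had a listed region, and all 39 regions at these 18 were lower in the authors' deposited table, with a median log2 fold change of -1.35, where 71.1% of all listed regions were lower with a median of -0.94. Limma passed 8 of the 39 lower and 0 higher, a share near the 14.9% of all listed regions. Limma-voom passed 32 lower, beside 58.0% of all listed regions. Klf14 in the Mest cluster had the smallest limma p of the list. Its region at 30954801 to 30959800 on chromosome 6 held 89.2, 85.5 and 114 normalised reads in KO and 358, 382 and 502 in WT (limma log2 fold change -2.09 ± 0.25 SE, adjusted p = 0.0471). Nnat, a small membrane protein gene with a control region at its promoter, held 20.4, 10.5 and 12.6 in KO and 37.2, 69.7 and 65.3 in WT. Its groups stood apart, and it passed (limma adjusted p = 0.0471). Peg13, Slc38a4, Zrsr1, Rasgrf1, Trappc9 and Slc22a2 each had 1 region that passed, with authors' log2 fold changes of -1.90, -1.53, -1.24, -1.32, -1.61 and -1.58 in the deposited table. Ddc, beside Grb10, Commd1 and Ppp1r9a had lower regions that did not pass limma. Among other neighbours of the 10 genes, Kcnq1 had 6 lower regions and Cdkn1c, a cell cycle inhibitor silenced by Kcnq1ot1, had 1, and none of these passed limma. Meg3, the RNA of a paternally methylated cluster, had 4 lower regions, none of which passed limma.

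**Figure D3:**
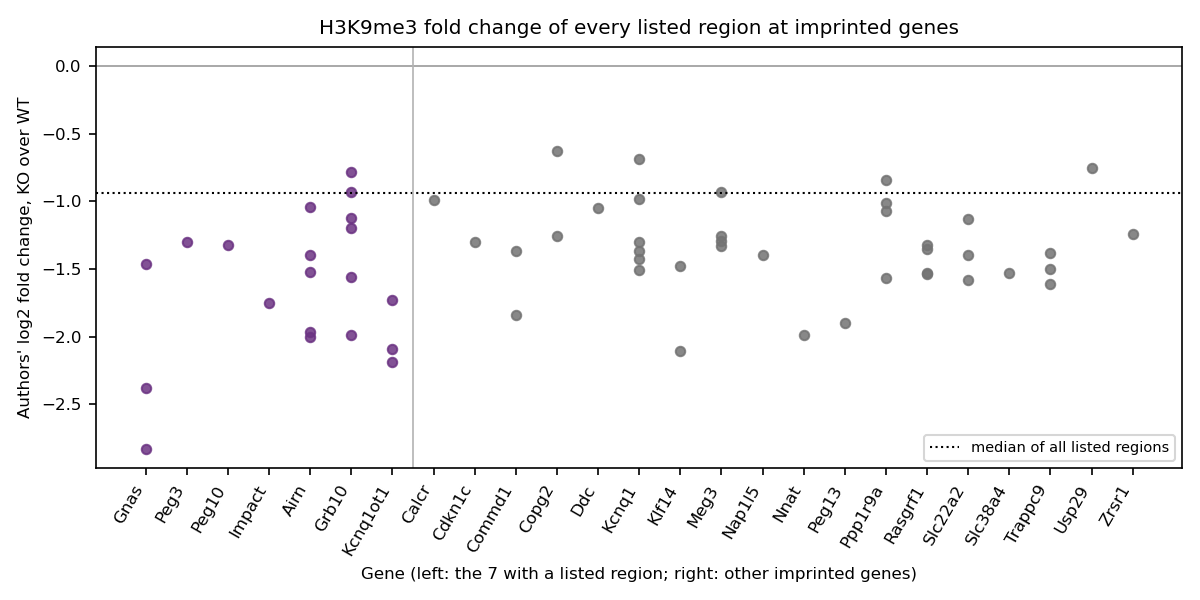
The authors' log2 fold change (KO over WT) of every listed H3K9me3 region at the 7 members with a region (purple, left) and at other imprinted genes (grey, right), with a dotted line at the median of all listed regions (-0.94). Every point lies below 0, and a Gnas region is the lowest.

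Of 10 genes that maintain imprints, 3 had listed regions. Zfp445, a zinc finger protein that acts beside ZFP57, had a region (122858201 to 122862800 on chromosome 9) with 20.4, 33.1 and 139.5 normalised reads in KO and 195, 277 and 207 in WT (limma adjusted p = 0.0478). Atf7ip, a partner that stabilises SETDB1, had 9 lower regions, of which 2 passed limma. Uhrf1, which directs maintenance DNA methylation, had 1 region that was higher in the authors' deposited table (0.72) and did not pass (limma adjusted p = 0.129). Zfp57, Trim28 and Dnmt1 had none.

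The H3K27ac peak lists could show little about a difference at these genes. Of the 10, 2 had no peak in any library and 5 more had a library at 0 in both genotypes, which left Gnas, Peg10 and Impact as the 3 whose values could stand apart. For each gene with a peak the bases covered by peaks were compared between genotypes with a two-sided exact permutation test, which cannot go below 0.1 with 3 against 3. At none of these 3 did the KO and WT values stand apart. Over all 19599 genes with a peak they did so with KO higher at 0.133% and with KO lower at 0.0612%, so a count of 0 says nothing particular about the imprinted genes. Compared within the title numbers 508 and 2982, an alternative chosen after the data were seen, KO and WT stood apart in both numbers at 0 of the 10 genes, beside 0.286% of genes with KO higher and 0.230% with KO lower. Gnas had the most cover, 751, 2513 and 779 bp in KO and 2074, 2573 and 800 bp in WT (exact permutation p = 0.5). Impact had 1123, 1328 and 0 bp in KO and 1197, 1434 and 661 bp in WT (exact permutation p = 0.6). Part of this cover lay far from the Impact start used here, at 12955505 to 12956234 (centre at -16383 bp). That place was seen in 2 KO and 3 WT libraries and gave all 661 bp of WT replicate 3. Peg10 had 526, 554 and 187 bp in KO and 214, 551 and 279 bp in WT (exact permutation p = 0.9), all in the 1 kb upstream of the gene. The groups overlapped at all 3 genes, and the replicate 3 libraries are those with the shortest peak lists in both genotypes.

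Peg3 had 541, 751 and 0 bp in KO and 655, 750 and 0 bp in WT (exact permutation p = 1). Kcnq1ot1 had 505, 1022 and 0 bp in KO and 498, 298 and 0 bp in WT (exact permutation p = 0.5). Without KO replicate 3 its KO values stood above the WT values, as did those of Igf2r, and without KO replicate 2 those of Gnas stood below. Airn had 452, 1383 and 0 bp in KO and 798, 435 and 0 bp in WT, and Igf2r, which shares some of these peaks, had 647, 1329 and 0 bp in KO and 522, 397 and 0 bp in WT (exact permutation p = 0.7 and 0.5). Mest had 0, 1340 and 278 bp in KO and 0, 650 and 0 bp in WT (exact permutation p = 0.7). Grb10 and Plagl1 had no peak in any library.

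**Figure D4:**
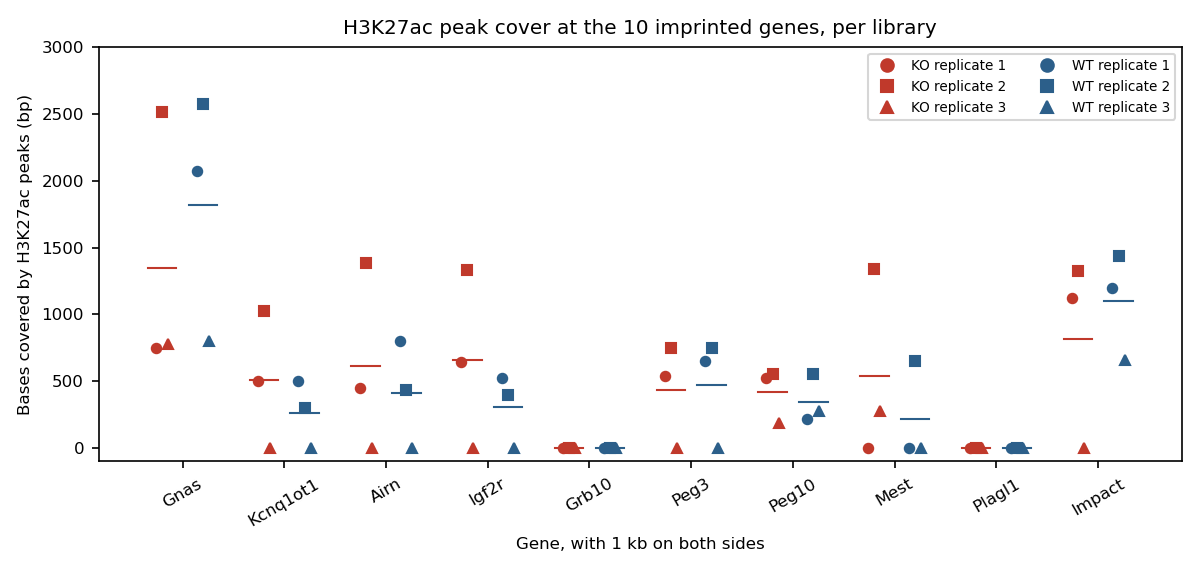
Bases covered by H3K27ac peaks in or within 1 kb of each of the 10 genes, with KO libraries in red left of WT libraries in blue, 1 symbol per replicate and bars at the means. The groups overlap at every gene, and the replicate 3 libraries have no cover at several genes in both genotypes.

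The peaks fell at 35 merged places, counted per gene. Of these, 18 were seen in both genotypes, 13 in KO only and 4 in WT only, and 14 rested on 1 library. None was in all 3 libraries of 1 genotype and absent from the other. Places shared by Airn and Igf2r count for both genes, among them the KO-only place at 12769373 to 12769661. The shares of KO-only and WT-only places over all peaks were not computed. KO replicate 2 had the longest list (42651 peaks), so 13 against 4 is not read as a difference at these genes. The 3 places found in all 6 libraries were at Gnas and Peg10. At Gnas one was 174294238 to 174295409, 2492 bp upstream of the H3K9me3 region at 174297901, and the other was 174330198 to 174330930, just after the most downstream annotated start. At Peg10 it was 4746562 to 4747116, which ends 485 bp before the H3K9me3 region. It also ends before the gene, which starts at 4747306, and whether it belongs to Peg10 was not tested. The KO peak there reached the fold enrichment percentiles 59.9, 94.4 and 57.7 of its own list, and the WT peak 70.2, 98.1 and 37.4.

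At Peg3 and Impact, H3K27ac peaks overlapped a listed H3K9me3 region. The 2 marks came from different libraries and animals, and the H3K9me3 regions are joined from 1 kb windows. The authors' H3K9me3 enrichment was 1.02 in KO and 2.11 in WT at Peg3, and 0.99 in KO and 2.85 in WT at Impact. At Peg3, the peaks merged to 6728007 to 6728329 and 6728960 to 6729468, each present in 2 KO and 2 WT libraries, overlap the H3K9me3 region that was lower in KO. At Impact, 12973342 to 12973848 was present in 2 KO and 2 WT libraries inside its H3K9me3 region. These were 2 of the 20 regions, where 2.37% of all listed regions, and 4.39% of the 1870 in all promoter classes including the proximal one, overlapped a peak in any library. Whether both marks lie on the same bases, in the same cells or on the same parental copy was not tested.

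At the start of Kcnq1ot1, H3K27ac peaks lay on either side of the promoter window printed above. The place at 143296071 to 143296490, downstream of the start, was seen in 2 KO and 2 WT libraries. The place at 143296788 to 143297019 was seen in 1 KO and 1 WT library, and only its KO peak overlapped the upstream end of the window. A further place at 143295104 to 143295474 was seen in KO replicates 1 and 2 and in no WT library, which with 1 library missing in KO does not separate the genotypes. The H3K9me3 regions of Kcnq1ot1 lay at least 41204 bp from these places.

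**Figure D5:**
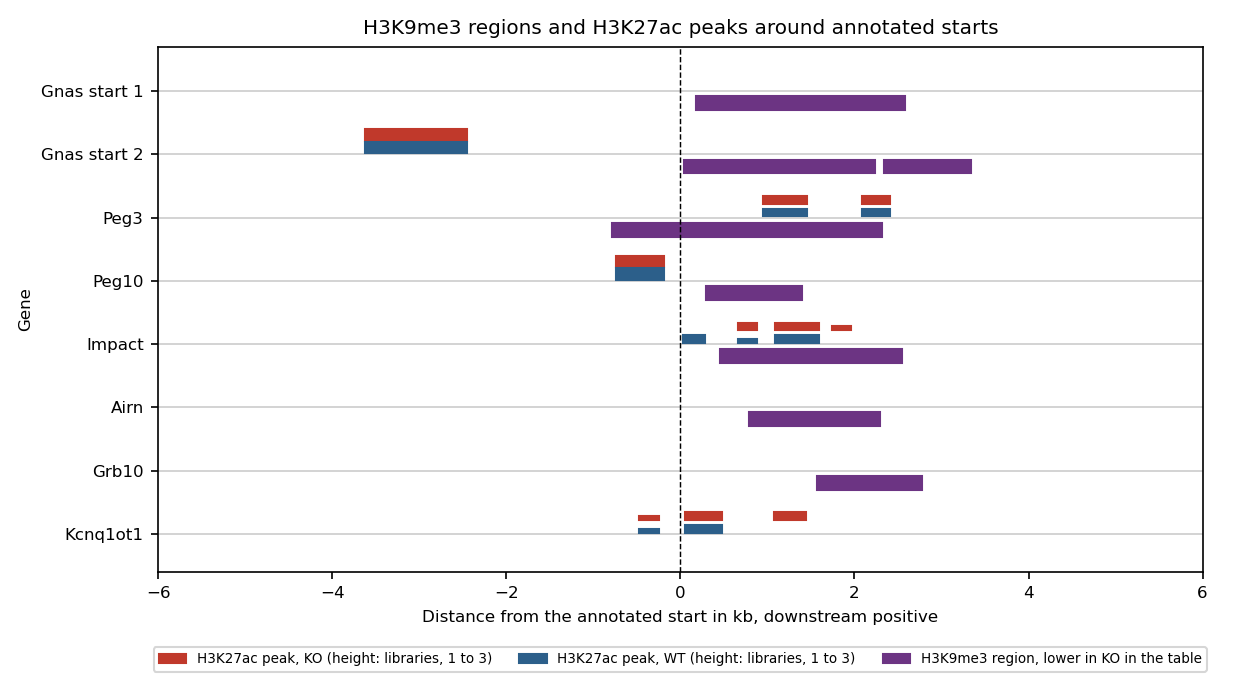
H3K9me3 regions (purple) and H3K27ac peaks (KO red above WT blue, height by number of libraries) within 6 kb of the annotated starts used for each gene, as distance from the start in kb with downstream positive. Gnas start 1 is the upstream one. A listed H3K9me3 region lies downstream of or over the start at 6 genes, and H3K27ac overlaps it at Peg3 and Impact. Kcnq1ot1 has H3K27ac and no listed H3K9me3 region in this span, which does not show that the mark is absent there. Igf2r, Mest and Plagl1 are not drawn.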

How the data were processed

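Per the submitters' processing notes, reads were processed against mm10 with Bowtie2 2.3.4.3 and MACS2 (version not given). The authors deposited 1 H3K9me3 table of 1 kb windows joined into regions. It holds normalised values per library (scaling not stated), group means as a normalised signal, enrichment as a ratio, log2 fold changes, and p-values, per the file headers. The comparison tool was not named. These p-values matched a G-test on summed values, which leaves out the spread between animals (largest difference 0.00674 in log10 p over 38105 regions). For H3K27ac the authors deposited 1 peak list per library, with a score, fold enrichment and p and q values as -log10. Peak lists give no depth for these libraries.

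The unit of the H3K9me3 values was joined text per genotype. Whole reads were recovered for 100% of low values at each position (tolerance 0.1 reads). Main test: limma 3.58.1 (R 4.3.3) with a mean-variance trend, pseudocount 1 and no filter. On the log2(value + pseudocount) scale a near-0 value in 1 library weighs more than in a ratio of means, so fold changes differ from the authors' (Grb10 at 11987801: -2.94 here, -1.99 in the authors' deposited table). Exact permutation tests used scipy 1.17.1. Starts came from RefSeq promoter windows and the table's transcripts.

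Members, gene lists and tests were chosen with earlier results of these data known. Named were all members with every listed region, Setdb1, list genes with a region by smallest limma p, and the 3 regions nearest to Gnas. Meg3, Cdkn1c and Uhrf1 were added after their values were seen. The planned edgeR test was not run, because the values are joined text. Counting limits cover counting error only.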

Additional observations from a re-analysis of the deposited data

How the results depend on the processing

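Of 140 log2 fold changes of the 20 regions under 7 other settings, 139 stayed below 0, as did all 120 with a listed value left out. The exception was Grb10 at 11964401, at 0.046 under median-ratio scaling. The filter at a mean of 20, the fit without the trend and the autosomes-only fit leave these fold changes unchanged by construction. At the 19 regions whose groups do not overlap, leaving out a value cannot turn the sign. Most of these signs were thus fixed in advance, and their counts say little about robustness. The count of the 20 regions that limma called lower (10) was 16 with a pseudocount of 5, 6 under median-ratio scaling, 0 without the mean-variance trend (18 at an unadjusted p of 0.05) and 19 with limma-voom on recovered reads, and ran from 0 to 20 with a listed value left out. Over all listed regions the 7551 lower and 627 higher calls became 16857 and 2254 with a pseudocount of 5, 3025 and 14045 under median-ratio scaling, 0 and 0 without the trend (23535 and 6073 at an unadjusted p of 0.05) and 29385 and 7132 with limma-voom. On the autosomes alone 980 were higher. With a listed value left out they ran from 0 to 30932 lower and from 0 to 2986 higher. The cause was not tested. H3K27ac cover that did not overlap between genotypes was seen at 0 genes, and at 0 to 1 lower and 0 to 2 higher with a library left out. With the title number as a replicate block, H3K27ac cover stood apart at 0 genes in either direction, and the exact permutation p of the 8 genes with a peak ran from 0.5 to 1, where 0.167 is the smallest possible. No paired analysis was possible for H3K9me3 because its listed values name no animal. The edgeR alternative was not run.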
